A study of Homo sapiens with 17 samples.

Results

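Jurkat cells kept for 24 h with ILT3.Fc at 25 µg/ml were compared with Jurkat cells kept for 24 h without it (0 µg/ml). The comparison rested on 4 of the 17 RNA-seq libraries of the series, 2 per group, all from sequencing lane 4. Of the 25548 gene symbols in the table, 11977 had a mean FPKM (sequenced fragments per unit length of the gene model, scaled to library depth) of at least 1 over the 4 libraries and were tested. Jurkat, an established leukaemia cell line of human T lineage, was grown here in serum-supplemented medium. ILT3.Fc is a fusion of the outer domain of ILT3, an inhibitory receptor of myeloid cells, with an antibody Fc fragment, and the series asked which regulator stands behind the cells' response to it. The untreated cells received no Fc fragment or other control protein that the labels name, and 1 leukaemic line stands for T cells. The labels call the second library of each group a duplicate without naming its culture, so p-values reflect only the spread between these libraries, which may be technical. The other libraries held 12.5 µg/ml at 24 h and all 3 doses at 6 and 12 h.

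Cholesterol is made from acetyl-CoA through the mevalonate pathway to squalene and then through the sterol intermediates. The genes of these enzymes are switched on by SREBP2, which is held at the endoplasmic reticulum by SCAP and INSIG when sterols are plentiful. The genes of mitosis, such as the cyclin B genes, the Polo and Aurora kinases and the spindle motors, are transcribed late in each cell cycle, under FOXM1, B-MYB and the DREAM complex, through short elements near their start sites. Dividing leukaemic cells express both programmes at a high level.

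At 24 h, most genes of the sterol enzymes were higher with ILT3.Fc and most genes of mitosis were lower. In the cholesterol synthesis lists, 19 of 22 enzyme genes rose and 1 fell, with a median log2 difference of 0.48, while the median over all tested genes was 0.04. In the mitotic lists, 43 of 70 genes fell and 1 rose, with a median of -0.25. Single genes outside those groups moved as far: ALDOC rose, and CHORDC1, H1F0 and SF3B3 fell. Every difference below is the mean of log2(FPKM + 1) at 25 µg/ml minus that at 0 µg/ml, a scale that understates the change of genes with low FPKM. A gene was called at a Benjamini-Hochberg adjusted p under 0.05 in limma, fitted across all 17 libraries.

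Over all tested genes, limma called 1988 (16.6%), with 1297 higher (10.8%) and 691 lower (5.77%) at 25 µg/ml. At an unadjusted p under 0.05 there were 3886. Most of these differences were small. The median size among the called genes was 0.27, and 147 reached 0.5 (89 higher, 58 lower). The split of calls turned with the scaling: 789 were higher and 963 lower after centring each library on its median, 989 and 973 after quantile normalization, and 986 and 1180 after a correction of every library for the GC content and length of its genes (8.87% higher and 10.6% lower of 11113 genes). In all 1988 called genes the 2 groups did not overlap and both replicate pairs moved the same way. The groups also did not overlap in 60.8% of all tested genes (37.7% higher and 23.2% lower at 25 µg/ml).

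The replicate pairs differed in one respect that followed the base composition of the transcripts. Across 11113 genes with a known GC content, the deviation of replicate 2 at 25 µg/ml from the mean library rose with GC content (Spearman correlation 0.57, a description over genes that are not replicates), and that of untreated replicate 2 fell with it (-0.37). The corresponding values of the replicates 1 were 0.13 at 25 µg/ml and 0.03 in untreated cells. From the lowest to the highest of 5 equal classes of genes by GC content, the median difference ran from 0.02 to 0.06 in the first pair and from -0.11 to 0.25 in the second. The share of genes called higher ran from 2.70% to 24.9% and the share called lower from 10.6% to 1.17%. After the GC and length correction these shares ran from 8.05% to 9.22% and from 10.5% to 8.95%. The correction takes out each library's trend with GC content, so such flat shares are built in. A treatment effect that followed GC content would be taken out with it. Of the 1914 called genes with a corrected value, 1292 kept their call in the same direction (731 higher, 561 lower) and 7 had the opposite sign. Without replicate 2 at 25 µg/ml, 611 genes were called, and 579 of these were among the 1988, in the same direction. Without untreated replicate 2, 490 were called, and without untreated replicate 1, 1077. The first pair alone called 136 genes, 131 of them shared, and the second pair alone 1554, 1132 of them shared. Leaving out replicate 1 of 12.5 µg/ml at 6 h, a library outside the comparison that shares in the estimate of the spread, gave 3091 calls. Corrected counts, counts without treated replicate 2, or both are given with most of the groups below. Calls over all genes also fell without that library, so a lower count there is not by itself a trait of the group.

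**Figure D1:**
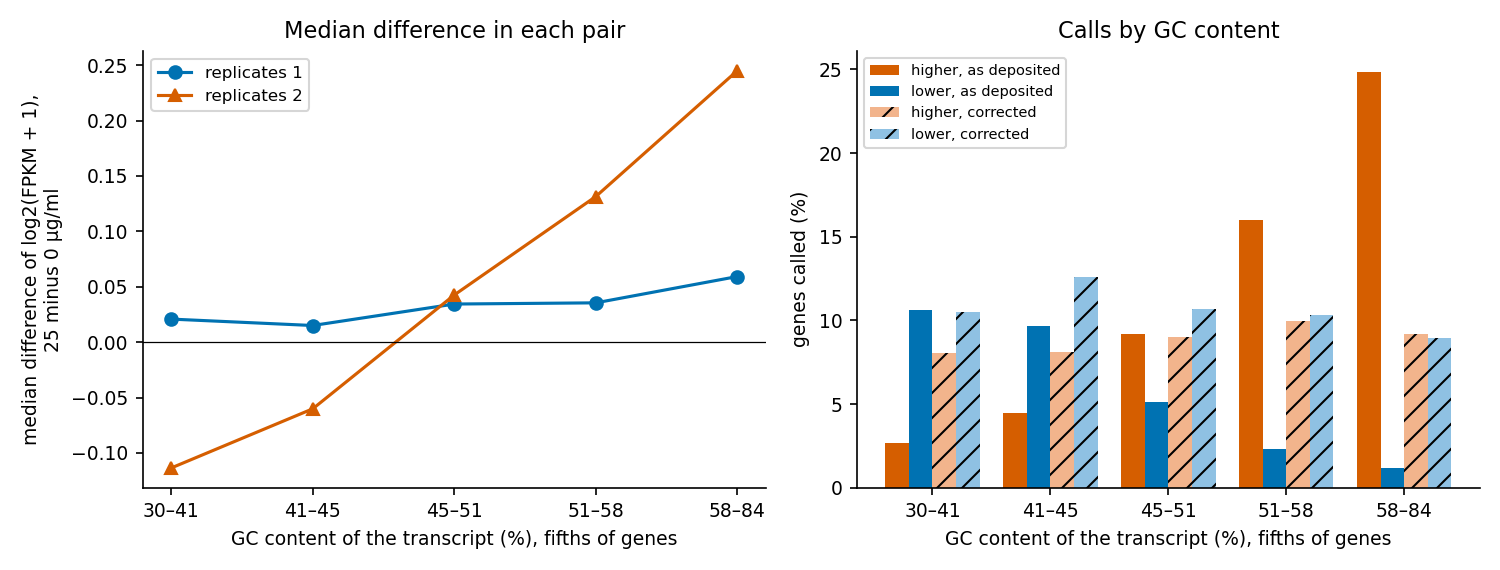
Left: median difference of log2(FPKM + 1), 25 minus 0 µg/ml at 24 h, in 5 equal classes of genes by transcript GC content (x axis, %), for each replicate pair. Right: percent of genes called higher or lower in each class, as deposited (plain) and corrected for GC content and length (hatched). The line of replicates 2 climbs from -0.11 to 0.25 while that of replicates 1 stays between 0.02 and 0.06. The plain bars tilt with GC content, and the hatched ones, from which the correction takes that trend, do not.

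Each held between 11891 and 12002 genes with at least 1 FPKM, their depth was 0.92 to 1 of the deepest of the 4, and the absolute depth is unknown. Correlations between libraries ran from 0.9756 to 0.9853 across genes, and no pair was identical. All 12 T lymphoid markers were expressed, with summed FPKM of 1988 to 2070 in untreated and 2129 to 2157 in treated cells. Of the markers of other lineages, an FPKM of 1 was reached by 2 of 8 B cell, 1 of 10 myeloid, 2 of 8 NK, 1 of 7 erythroid and 0 of 9 epithelial and fibroblast markers. The B cell markers summed to 41.0 to 44.3 FPKM in the untreated and 46.5 to 49.6 FPKM in the treated libraries. CD79A carried most of that sum (36.1 and 33.4 against 37.9 and 40.5 FPKM), PAX5 and CD22 were listed at 0 in all 4 libraries, and neither CD79A nor BLK, the other member above 1 FPKM, was called. The myeloid marker CD68 (1.90 to 2.16 in untreated, 3.12 and 3.22 in treated cells) and the NK markers NKG7 and PRF1 were called higher at those low levels. The part of such cells in the results was not tested. LILRB4, the gene of ILT3 itself, was listed at 0 in all 4 libraries.

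In the mevalonate pathway 7 of 9 genes rose, HMGCS1 by the largest amount in either sterol list. HMGCS1, which makes HMG-CoA, had 65.2 and 69.2 FPKM in untreated cells and 136 and 130 FPKM at 25 µg/ml, a log2 difference of 0.97 (SE 0.0414, limma adjusted p = 9.53e-07). Both treated libraries lay far above both untreated ones, and the corrected difference was 1.01. ACAT2, which joins acetyl-CoA units at the entry, had 97.4 and 96.0 FPKM untreated and 142 and 139 FPKM treated (0.53, limma adjusted p = 0.000712). MVD, which decarboxylates mevalonate diphosphate, went from 27.2 and 25.6 FPKM to 40.5 and 43.0 FPKM (0.64, limma adjusted p = 0.000277). In these 3 genes, as in all genes called higher, the treated libraries lay above the untreated ones without overlap. Of the other members, MVK (mevalonate kinase, 0.55), IDI1 (isopentenyl diphosphate isomerase, 0.46) and FDPS (farnesyl diphosphate synthase, 0.33) also rose. PMVK, the second kinase of the pathway, had 40.0 and 36.9 FPKM untreated and 37.2 and 40.9 FPKM treated and was not called (0.02, limma adjusted p = 0.887). GGPS1, which leads to geranylgeranyl diphosphate and away from sterols, was not called either (0.01, limma adjusted p = 0.887). The list had 0 members lower and a median of 0.46, and 7 members were also called after correction and under each removal of 1 library.

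The branch from squalene to cholesterol followed the same direction in all but 1 gene. MSMO1, which removes the first methyl groups at carbon 4, had 28.3 and 32.2 FPKM in untreated cells and 53 and 49.7 FPKM in treated cells (0.75, SE 0.0595, limma adjusted p = 9.34e-05). FDFT1, squalene synthase, had 203 and 202 FPKM against 298 and 291 FPKM (0.54, SE 0.0436, limma adjusted p = 9.34e-05). DHCR7, the reductase of the last step in one route, rose from 52.6 and 49.7 FPKM to 70.6 and 73.6 FPKM (0.49, limma adjusted p = 9.34e-05). In these 3 the spread within each group was a small part of the gap. Their groups did not overlap, as in every called gene and in 60.8% of all tested genes. NSDHL, a dehydrogenase acting after MSMO1, rose from 22.5 and 20.9 FPKM to 30.0 and 31.0 FPKM (0.47, limma adjusted p = 0.000356). Of the other members given here, CYP51A1 (lanosterol demethylase) rose by 0.67, HSD17B7 by 0.65, TM7SF2 by 0.51, LSS (lanosterol synthase) by 0.50, SQLE (squalene epoxidase) by 0.32, EBP by 0.31 and SC5DL by 0.26. These genes are given to describe the list beyond the naming rule. LBR had 101 and 107 FPKM untreated and 86.5 and 82.1 FPKM treated and was the 1 enzyme gene that fell (-0.31, limma adjusted p = 0.00112). It was singled out after its values were seen; its protein is a sterol C14 reductase and also a receptor for lamin B in the nuclear envelope, and TM7SF2 encodes the other C14 reductase.

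Over both lists the count of members called higher was 19 of 22 after correction (median 0.36), 18 after median centring or quantile normalization, 15 without replicate 2 at 25 µg/ml and 11 with only the 4 libraries compared in the fit. The first pair alone called 13 and the second 16. The background share of genes called higher was 10.8%.

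**Figure D2:**
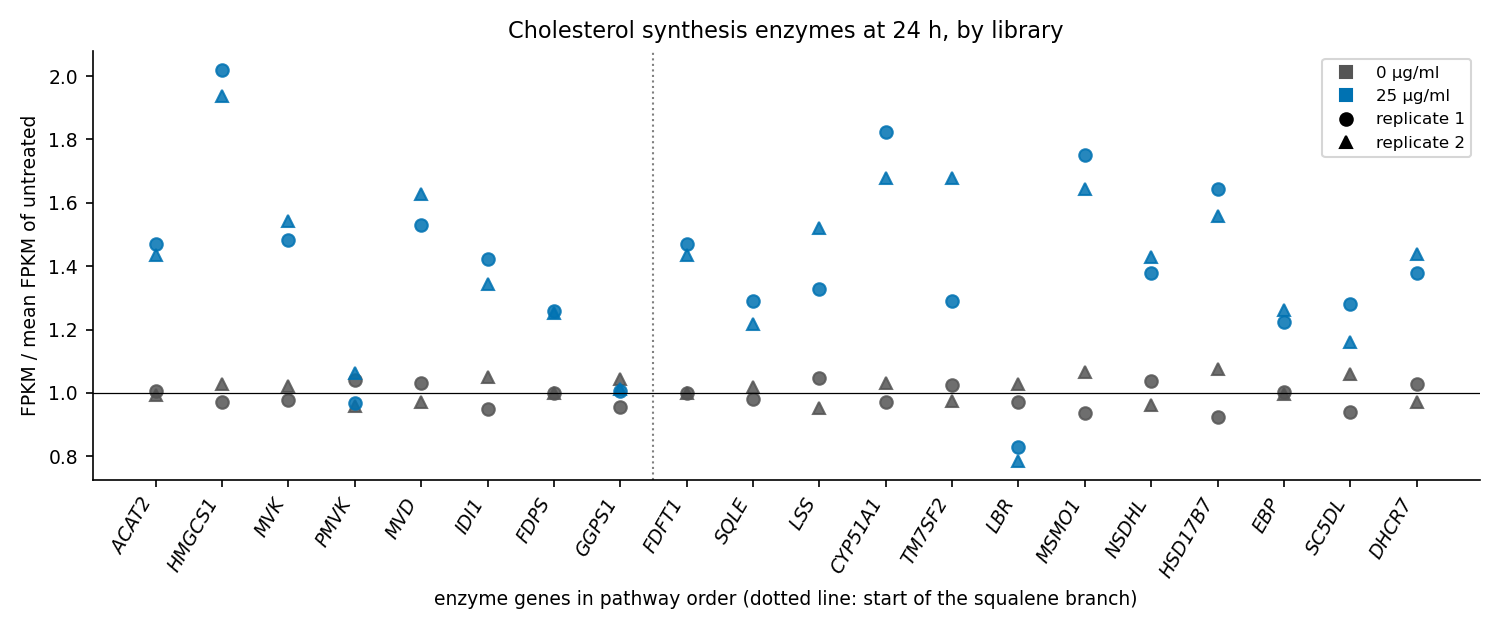
FPKM of cholesterol synthesis enzyme genes at 24 h divided by the gene's mean in the 2 untreated libraries (y axis, ratio), in pathway order (x axis), with 1 point per library. HMGCS1, CYP51A1 and MSMO1 have the highest treated points, PMVK and GGPS1 lie at the untreated level, and LBR is the 1 gene whose treated points lie below it.

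Regulators of the pathway and genes of cholesterol uptake also rose, with a median of 0.27. INSIG1, a sterol-responsive brake on SREBP processing, had 79.3 and 84.5 FPKM in untreated cells and 113 and 109 FPKM in treated cells (0.43, SE 0.0426, limma adjusted p = 0.000277). SREBF2, which encodes SREBP2, went from 49.7 and 48.4 FPKM to 58.6 and 64.6 FPKM (0.32, limma adjusted p = 0.00598). In both the treated libraries lay above the untreated ones, as in all genes called higher. In SREBF2 the second treated library was farther out than the first. NPC1, which moves cholesterol out of lysosomes, rose from 11.1 and 11 FPKM to 14.3 and 14.1 FPKM (0.34, limma adjusted p = 0.00631). SREBF1, which encodes the SREBP1 proteins that favour fatty acid genes, had 20.5 and 19.2 FPKM untreated and 21.4 and 24.4 FPKM treated and was not called (0.19, limma adjusted p = 0.0533; corrected 0.02). The list had 7 of 11 tested members higher and 0 lower, against 10.8% and 5.77% of all tested genes (8.87% and 10.6% after correction). It had 6 higher after correction and 2 without replicate 2 at 25 µg/ml.

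NR1H3, the sterol-sensing receptor LXR alpha, rose from 5.13 and 4.84 FPKM to 6.44 and 7.49 FPKM (0.41, limma adjusted p = 0.0128), and ABCG1, a sterol exporter, from 2.30 and 2.51 FPKM to 3.44 and 3.33 FPKM (0.37, limma adjusted p = 0.0198). These were 2 of the 4 tested members, and 0 were called without replicate 2 at 25 µg/ml. In fatty acid synthesis and desaturation 5 of 14 tested members rose and 0 fell (median 0.11), against 10.8% and 5.77% of all tested genes. After correction 3 members were higher and 1 lower, against 8.87% and 10.6% of all genes. After median centring and quantile normalization 3 and 2 members were higher. The largest was SLC25A1, the mitochondrial citrate carrier, with 34.6 and 34.5 FPKM against 48.8 and 50.5 FPKM (0.51, limma adjusted p = 0.00053). ACLY, which splits citrate to acetyl-CoA (0.21), and SCD, the stearoyl-CoA desaturase (0.21), also rose. FASN, the fatty acid synthase itself, was not called (0.23, limma adjusted p = 0.105).

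The promoters of these genes were read from RefSeq (GRCh38.p14) as windows of 250 bases before to 50 bases after the gene start, and 27 of the 33 tested members of the synthesis, control and uptake lists had such a window. The letters searched were CACCCCAC, a core of a sterol regulatory element, and CCAAT, the box bound by NF-Y, on both strands. The sterol core was in 1 of 27 members (3.70%), against 3.39% of all promoters. A CCAAT was in 18 of 27 (66.7%), against 39.7% of all promoters and 44.0% of those of tested genes. Among the members called higher it was in 17 of 20 (85%), and among the others in 1 of 7. A gene was counted if any of its windows held the letters. MSMO1 is shown for its CCAAT copies (3 in the stretch shown and 4 in the whole window). HMGCS1 is shown because it rose most, and SREBF2 because it held the 1 sterol core. For HMGCS1 another window, at another start, held neither CACCCCAC nor CCAAT on either strand and is not shown. The stretches shown lie upstream of the gene start, at chr4:165327519-165327668 (plus strand), chr5:43313413-43313562 (minus strand) and chr22:41832955-41833054 (plus strand), and capitals mark CCAAT, its reverse complement ATTGG, and CACCCCAC.
MSMO1: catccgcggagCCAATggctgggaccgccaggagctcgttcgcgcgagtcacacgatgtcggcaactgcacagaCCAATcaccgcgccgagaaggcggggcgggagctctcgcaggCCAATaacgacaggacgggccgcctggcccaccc
HMGCS1: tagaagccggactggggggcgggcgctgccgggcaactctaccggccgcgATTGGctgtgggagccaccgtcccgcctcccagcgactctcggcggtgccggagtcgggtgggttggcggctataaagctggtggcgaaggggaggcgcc
SREBF2: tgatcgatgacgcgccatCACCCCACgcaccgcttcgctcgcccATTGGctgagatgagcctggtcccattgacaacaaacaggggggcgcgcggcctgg
A match says that the letters stand in the window, not that a factor binds there.

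Mitotic genes moved in the opposite direction. HMMR, which encodes a spindle assembly protein that also binds hyaluronan, had 56.7 and 59.5 FPKM in untreated cells and 35.2 and 30.9 FPKM in treated cells (-0.80, SE 0.0556, limma adjusted p = 3.89e-05). PLK1, the Polo-like kinase of mitotic entry and exit, had 108 and 105 FPKM against 63.0 and 70.3 FPKM (-0.68, SE 0.0453, limma adjusted p = 3.26e-05). CCNB2, a cyclin B gene, had 130 and 131 FPKM against 83.7 and 79.3 FPKM (-0.68, SE 0.0610, limma adjusted p = 0.000154). In each of these the highest treated library stayed well below the lowest untreated one, and the corrected differences were -0.75, -0.79 and -0.67. In bulk RNA, fewer cells in mitosis and less of these mRNAs per cell cannot be told apart.

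The fall ran through each class of mitotic gene. Among the kinases, 9 of 16 fell and 1 rose (median -0.25). AURKA, which matures the spindle poles, fell from 56.6 and 57.9 FPKM to 43.7 and 43.1 FPKM (-0.39, limma adjusted p = 0.00154), and BUB1B, of the spindle checkpoint, from 65.9 and 68.2 FPKM to 52.7 and 52.3 FPKM (-0.35, limma adjusted p = 0.000385). PKMYT1, an inhibitory kinase of CDK1 named after its value was seen, was the 1 kinase gene called higher (0.22), and it was not called after correction (0.03). Among the kinesins, 9 of 13 fell and 0 rose (median -0.39). KIF20A, a motor of cytokinesis, went from 38.0 and 37.9 FPKM to 23.5 and 23.9 FPKM (-0.66, SE 0.0434, limma adjusted p = 3.26e-05), with duplicates that differed far less than the groups. CENPE, which carries chromosomes to the spindle equator, went from 25.4 and 26.9 FPKM to 17.3 and 15.5 FPKM (-0.64, limma adjusted p = 0.000813).

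Spindle and cytokinesis genes fell in 17 of 25 cases and rose in 0 (median -0.28). TPX2, the activator of Aurora A on the spindle, had 133 and 131 FPKM untreated and 103 and 99.5 FPKM treated (-0.38, SE 0.0309, limma adjusted p = 9.34e-05). DLGAP5 had 53.8 and 58.1 FPKM against 41.1 and 37.5 FPKM (-0.50, limma adjusted p = 0.000356). Among the cyclins and the genes of the anaphase-promoting complex, which destroys cyclin B, 8 of 16 fell and 0 rose (median -0.20). CCNB1 had 179 and 184 FPKM against 127 and 123 FPKM (-0.54, limma adjusted p = 0.000277). CDC20, the activator of the complex, had 149 and 142 FPKM against 98.8 and 105 FPKM (-0.51, limma adjusted p = 0.000277), and CCNA2, which acts from S phase on, had 105 and 110 FPKM against 85.1 and 82.0 FPKM (-0.36, limma adjusted p = 0.00053). Over the 4 lists, 43 of 70 members were called lower against a background of 5.77%. The count was 56 after correction (background 10.6%), 47 and 49 after median centring and quantile normalization, 34 without replicate 2 at 25 µg/ml, 17 in the first pair alone and 22 with only the 4 libraries in the fit.

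**Figure D3:**
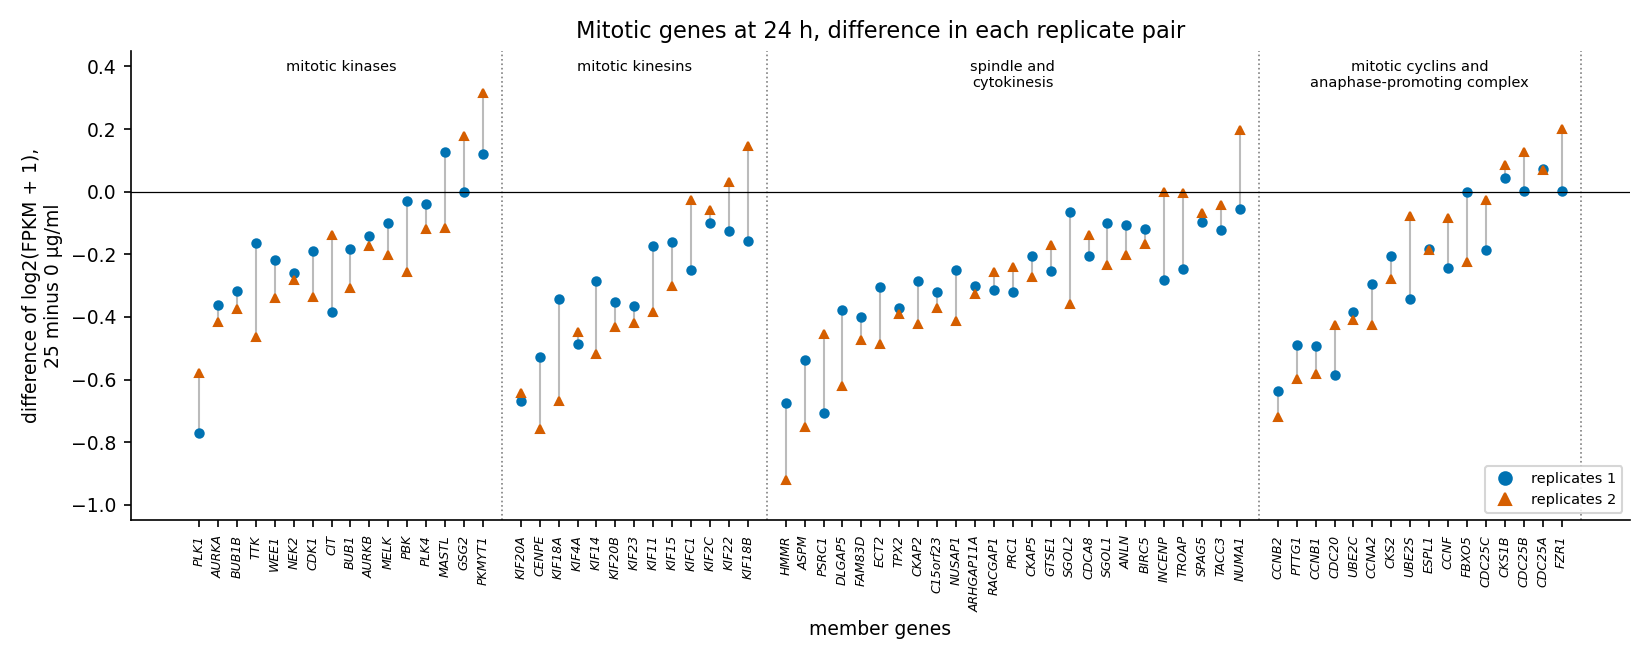
Difference of log2(FPKM + 1), 25 minus 0 µg/ml at 24 h (y axis), for every tested member of the 4 mitotic lists (x axis), with replicates 1 as circles and replicates 2 as triangles joined by a line. PLK1, KIF20A, HMMR and CCNB2 lie at the low end in both pairs, and PKMYT1 is highest among the kinases.

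The mRNAs of the transcription factors that drive these genes did not pass the test. FOXM1 had 64.1 and 62.5 FPKM untreated and 63.9 and 66.7 FPKM treated (0.04, limma adjusted p = 0.422). MYBL2, which encodes B-MYB, had 136 and 134 FPKM against 134 and 147 FPKM (0.06, limma adjusted p = 0.472). In both genes the groups overlapped. Of the 17 members of that list 2 rose and 2 fell: TFDP1 (0.14) and E2F1 (0.15) were higher, E2F5 (-0.21) and E2F3 (-0.13) lower. The shares over all tested genes were 10.8% higher and 5.77% lower, and 8.87% and 10.6% after correction. E2F1 lost its call in 17 of 26 alternatives and had -0.0067 after correction. Of the FOXM1 list's calls, none in either direction was left without treated replicate 2. Genes of the centromere and kinetochore fell in 9 of 34 cases and rose in 1 (median -0.13). After correction 11 fell and 2 rose, and without treated replicate 2 the numbers were 4 and 0. CENPF had 67.3 and 68.3 FPKM against 44.5 and 42.2 FPKM (-0.63, limma adjusted p = 0.000334), NDC80, of the outer kinetochore, 39.5 and 41.2 FPKM against 27.8 and 27.7 FPKM (-0.52, limma adjusted p = 0.000236), and CENPA, the centromeric histone H3, 43.8 and 42.5 FPKM against 30.6 and 30.2 FPKM (-0.49, limma adjusted p = 9.34e-05). The 1 member that rose was PMF1 (0.34), named after its value was seen.

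Of the DNA replication genes, 5 of 48 fell and 1 rose (median -0.02), against 5.77% and 10.8% of all tested genes. The lower genes numbered 11 after median centring and 9 after quantile normalization. After correction 19 were lower and 3 higher, when 10.6% of all genes were lower. MCM6, of the replicative helicase, had 113 FPKM in both untreated libraries and 92.8 and 92.2 FPKM in treated ones (-0.28, limma adjusted p = 0.000942). Of the 8 tested G1 genes, CCND3, a D-type cyclin, rose (0.25, limma adjusted p = 0.0103) and CDKN1B, the inhibitor p27, fell (-0.23, limma adjusted p = 0.00363). The 10 tested replication-dependent histone genes had a median of -0.40 with 0 called by limma, and they carry little weight because their mRNAs mostly lack the poly(A) tail by which the libraries were selected. H1F0, a linker histone gene of slowly dividing cells that is outside that list, fell from 17.9 and 17.7 FPKM to 10.7 and 10.5 FPKM (-0.70, SE 0.0590, limma adjusted p = 9.34e-05).

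The promoters of the mitotic genes were searched for TTTGAA and TTCGAA, the letters of the cell cycle genes homology region (CHR) bound by DREAM and B-MYB complexes, and for CCAAT, on both strands. Of the 58 members with a window, 41 (70.7%) held a CHR, against 19.5% of all promoters and 15.4% of those of tested genes. The share was 26 of 36 (72.2%) among members called lower and 15 of 22 (68.2%) among the others, which are near each other. CCAAT was in 45 of 58 (77.6%). In the 50 bases just before the start, 39.7% held a CHR, against 2.67% of tested genes; a CHR there with a CCAAT 20 to 50 bases before it was in 25.9%, against 0.471%. These last counts were chosen after the positions had been seen. HMMR, PLK1 and CCNB2 are shown because they fell furthest in their classes and hold both elements. The stretches end 1 base before the gene start, at chr5:163460532-163460631, chr16:23678789-23678888 and chr15:59105016-59105145, all on the plus strand, and capitals mark CCAAT or ATTGG and the CHR.
HMMR: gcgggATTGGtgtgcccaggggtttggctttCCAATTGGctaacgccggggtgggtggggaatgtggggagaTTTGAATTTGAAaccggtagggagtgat
PLK1: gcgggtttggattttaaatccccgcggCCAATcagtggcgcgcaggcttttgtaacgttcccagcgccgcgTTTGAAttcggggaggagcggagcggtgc
CCNB2: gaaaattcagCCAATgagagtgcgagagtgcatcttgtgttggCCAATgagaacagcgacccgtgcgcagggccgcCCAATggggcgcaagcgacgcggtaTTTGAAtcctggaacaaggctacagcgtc
HMMR holds 2 CHR copies in a row and CCNB2 holds 3 CCAAT copies in the stretch shown and 4 in the whole window.

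With small RNAs and provisional loci set aside, the 12 genes that rose most had varied roles outside the sterol lists. The largest rise among all called genes, those included, was 2.14. ALDOC, the aldolase C gene of glycolysis, had 6.09 and 5.85 FPKM in untreated cells and 10.8 and 12.2 FPKM in treated cells (0.84, SE 0.0839, limma adjusted p = 0.000288). C6orf223 had 5.46 and 6.08 FPKM against 11 and 12.1 FPKM (0.89, limma adjusted p = 9.34e-05), and MFAP4, a matrix protein gene, 3.33 and 3.55 FPKM against 6.25 and 7.66 FPKM (0.84, limma adjusted p = 0.000558). These 3, with HMGCS1 and MSMO1, kept their call under every alternative setting. IFI44, an interferon-inducible gene, rose from 1.49 and 1.42 FPKM to 2.91 and 3.16 FPKM (0.71, limma adjusted p = 0.00189). PLAC8L1 rose from 0.538 and 0.559 FPKM to 1.68 and 2.33 FPKM (0.95, limma adjusted p = 0.00602). The rest were less secure. RAET1L, an NKG2D ligand gene with near-identical neighbours, had 0.350 and 0.946 FPKM against 3.05 and 2.05 FPKM (1.12, SE 0.307, limma adjusted p = 0.0317) and lost its call in 12 of 25 alternatives. C11orf96 (0.76), IDI2-AS1 (0.74, an antisense gene in a table whose use of strand is not stated) and PRG2 (0.69) lost theirs in 11, 10 and 18 of 25. GGTLC2 (0.71) has near-identical copies among which reads could be split.

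Among the 12 genes that fell most under the same rule, 3 were the FAM72 copies. The largest fall among all called genes was -5.15. FAM72A had 27.4 and 27.9 FPKM against 17 and 14.9 FPKM (-0.76, limma adjusted p = 9.34e-05), and FAM72B (-0.75) and FAM72D (-0.67) went with it, but these copies are near-identical and their reads could have been divided between them. CHORDC1, a co-chaperone of HSP90, had 66.5 and 72.2 FPKM untreated and 42.6 and 39.5 FPKM treated (-0.74, SE 0.0565, limma adjusted p = 7.97e-05). GPR17, a receptor gene, fell from 1.83 and 1.95 FPKM to 0.668 and 0.608 FPKM (-0.82, limma adjusted p = 0.000951). LGALS1, the galectin-1 gene, had 2.26 and 3.17 FPKM against 1.10 and 0.287 FPKM (-1.16, SE 0.240, limma adjusted p = 0.00952) and lost its call in 7 of 25 alternatives. RN5S3, a 5S ribosomal RNA gene that poly(A) selection should leave out, had 7.70 and 12.4 FPKM in untreated libraries and was listed at 0 in both treated ones. HIST1H4E had 1.38 and 2.58 FPKM against 0 and 0.299 FPKM and lost its call in 10 of 25.

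**Figure D4:**
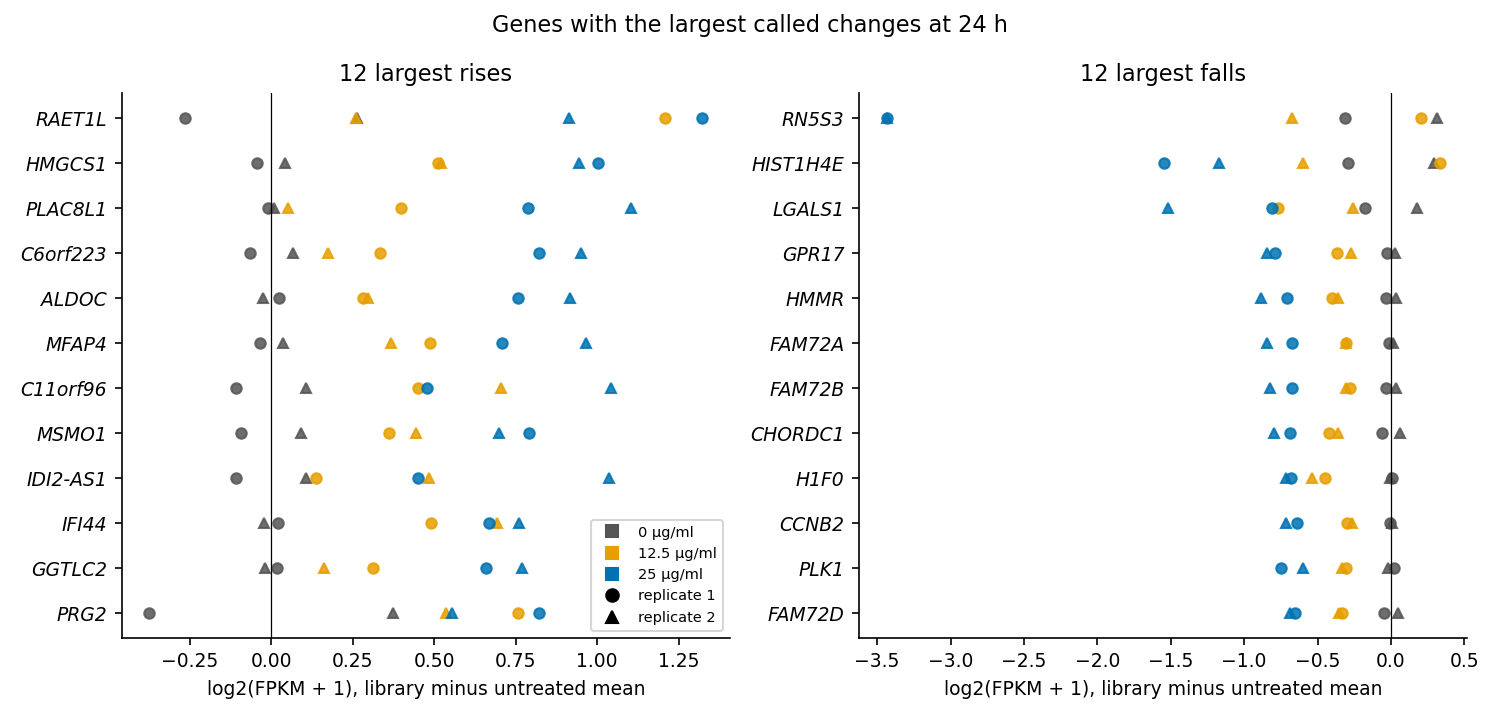
Each library's log2(FPKM + 1) minus the untreated mean at 24 h (x axis) for the 12 genes with the largest called rises and the 12 with the largest called falls (y axis), at 0, 12.5 and 25 µg/ml, circles for replicate 1 and triangles for replicate 2. The 25 µg/ml points of HMGCS1, C6orf223, ALDOC, HMMR, CCNB2 and PLK1 stand close together and away from the untreated ones. Those of RAET1L, C11orf96, IDI2-AS1, PRG2 and LGALS1 are widely spread. Small RNAs other than RN5S3 and provisional loci are left out.

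Among splicing genes, 1 subunit of the U2 complex stood apart. SF3B3, which encodes a subunit of SF3B, had 62.2 and 61.6 FPKM in untreated cells and 40.7 and 40.5 FPKM in treated cells (-0.60, SE 0.0329, limma adjusted p = 7.92e-06). Its duplicates differed by less than 1 FPKM and its call was kept under every alternative setting. None of the other 9 SF3A and SF3B genes was called by limma, and their values ran up to 0.13, as for SF3A2 (71.0 and 66.5 FPKM against 70.0 and 80.8 FPKM). The hnRNP and SR regulators, which choose splice sites, fell in 13 of 23 cases and rose in 0 (median -0.16). Of all tested genes 5.77% were called lower and 10.8% higher, and 10.6% and 8.87% after correction. SRSF1 had 180 and 181 FPKM against 157 and 151 FPKM (-0.23, limma adjusted p = 0.00146), and HNRNPM 311 and 304 FPKM against 265 FPKM in both treated libraries (-0.21, limma adjusted p = 0.0039). These genes have a median GC content of 40.7%, against 48.1% for all tested genes, and 8 were lower after correction, 5 without replicate 2 at 25 µg/ml and 0 in the first pair alone. Of the protein arginine methyltransferases, which modify splicing factors among others, PRMT10 (now PRMT9) rose from 9.25 and 9.40 FPKM to 13.6 and 13.3 FPKM (0.49, SE 0.0479, limma adjusted p = 0.000277). PRMT2 rose by 0.30, and the other 6 tested were not called.

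Chaperone genes of the cytosol fell in 8 of 21 cases and rose in 1 (median -0.13). HSPH1, a nucleotide exchange factor of HSP70, had 167 FPKM in both untreated libraries and 137 and 129 FPKM in treated ones (-0.33, limma adjusted p = 0.000721). The abundant HSPA8 (1989 and 1972 against 1686 and 1623 FPKM, -0.26) and HSP90AB1 (1512 and 1461 against 1304 and 1246 FPKM, -0.22) also fell. The count of falls was 16 after correction and 2 without replicate 2 at 25 µg/ml. The shares of all tested genes called higher and lower were 10.8% and 5.77%, and 8.87% and 10.6% after correction. In the endoplasmic reticulum 2 of 19 chaperone genes rose and 1, HSP90B1, fell (-0.24). After correction 1 rose and 3 fell, and without treated replicate 2 none was called. Of the lysosomal genes, 8 of 20 rose and 0 fell (median 0.17). NEU1, a sialidase, had 10.8 and 10.3 FPKM against 15.5 and 16.7 FPKM (0.57, limma adjusted p = 0.00267), and CTSD, the cathepsin D gene, 56.8 and 53.3 FPKM against 71.0 and 75.3 FPKM (0.40, limma adjusted p = 0.000712). TFEB, a transcription factor of lysosomal genes, rose at a low level from 1.91 and 1.94 FPKM to 2.96 and 2.80 FPKM (0.41, limma adjusted p = 0.00634). After correction 6 lysosomal genes were higher and 1 lower (median 0.08), and 4 were higher without treated replicate 2.

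Glycolysis had 6 of 23 members higher and 2 lower, 5 each after correction, and 4 and 1 without treated replicate 2. PFKL, a phosphofructokinase, rose from 26.6 and 23.6 FPKM to 34.2 and 37.5 FPKM (0.50, limma adjusted p = 0.000591), and PDK1, which turns off pyruvate dehydrogenase, fell from 6.48 and 6.86 FPKM to 4.95 and 4.76 FPKM (-0.39, limma adjusted p = 0.0011). Of 71 ribosomal protein genes, RPL13A alone was called (0.35, limma adjusted p = 0.0156), and none was called higher without treated replicate 2. Oxidative phosphorylation had 1 of 40 higher (NDUFS8, 0.23) and 1 lower (NDUFS1, -0.34). Ribosome biogenesis had 1 of 30 higher and 5 lower, and the ATF4 targets and tRNA synthetases 2 of 32 higher and 2 lower. Over all tested genes 10.8% were called higher and 5.77% lower, and 8.87% and 10.6% after correction. After correction the lower genes numbered 5 in oxidative phosphorylation, 13 in ribosome biogenesis and 8 among the ATF4 targets and tRNA synthetases, and without treated replicate 2 they numbered 1, 0 and 0. In the mTORC1 list 2 of 22 rose (9.09%), below the 10.8% of all tested genes. They were SESN1 (0.25) and SESN2 (0.27), both stress-induced brakes on mTORC1, and SESN2 lost its call in 16 of 25 alternatives. After correction 4 members of that list were higher. RPS6KB1, the S6 kinase gene, had 19.0 and 19.4 FPKM against 23.1 and 20.2 FPKM and was not called (0.16, limma adjusted p = 0.0763). The median of the ribosomal protein genes was 0.06, near that of all genes.

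Of 24 proximal T cell receptor signalling genes, 9 rose and 0 fell (median 0.12), but 4 were higher and 2 lower after correction, 4 and 6 were higher after median centring and quantile normalization, and 1 was higher without replicate 2 at 25 µg/ml. Of all tested genes, 10.8% were called higher and 5.77% lower, and after correction 8.87% and 10.6%. LAT, the adaptor of the receptor, had 67.3 and 63.0 FPKM against 77.5 and 80.9 FPKM (0.28, limma adjusted p = 0.00552). CD28, the costimulatory receptor, had 28.4 and 28.2 FPKM against 34.6 and 32.5 FPKM (0.24, limma adjusted p = 0.00578). CD28 was the more alike of the 2 in both pairs, at 0.28 and 0.20, against 0.20 and 0.35 for LAT. DGKA, a diacylglycerol kinase that dampens receptor signals, rose from 34.2 and 34.1 FPKM to 41.6 and 42.6 FPKM (0.30, limma adjusted p = 0.000663). CD6, a receptor for ALCAM, was called at 0.19 (limma adjusted p = 0.0398) but had 0.03 after correction, and ALCAM was not called (-0.12, limma adjusted p = 0.308). In the list of pre-T cell receptor and recombinase genes, 1 of 13 rose and 2 fell (3 and 4 after correction, 1 and 1 without treated replicate 2): PTCRA, the pre-T cell receptor alpha chain, fell from 14.2 and 13.0 FPKM to 8.95 and 10.5 FPKM (-0.45, limma adjusted p = 0.017), and RAG1, of the recombinase, fell from 91.8 and 92.7 FPKM to 74.9 and 72.2 FPKM (-0.32, limma adjusted p = 0.0243).

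Transcription factors and response genes moved singly. JUN had 5.07 and 5.28 FPKM in untreated cells and 8.02 and 8.32 FPKM in treated cells (0.57, limma adjusted p = 0.00135), and JUND 18.6 and 19.3 FPKM against 25.4 and 30.1 FPKM (0.52, limma adjusted p = 0.00118). IER3, another early response gene, fell (-0.50, limma adjusted p = 0.00829), and the other 14 tested members of that list were not called. MYC had 182 and 178 FPKM against 175 and 181 FPKM (-0.01, limma adjusted p = 0.796) and TAL1, the leukaemia factor of these cells, 58.8 and 58.4 FPKM against 58.3 and 59.7 FPKM (0.01, limma adjusted p = 0.882). NOTCH1 was not called (0.22, limma adjusted p = 0.204). Of 31 interferon-stimulated genes 6 rose and 1 fell, led by IFI44 and STAT2 (0.37). Of 20 p53 targets 5 rose, among them SERTAD1 (0.59) and BAX (0.22, lost in 15 of 26 alternatives), and of 25 apoptosis regulators 3 rose and 1 fell. Among all genes tested 10.8% were called higher and 5.77% lower, and 8.87% and 10.6% after correction. After correction 4 interferon-stimulated genes rose and 3 fell, 4 p53 targets rose, and 1 apoptosis regulator rose and 2 fell. Without treated replicate 2 the higher genes numbered 3, 2 and 0 in these lists. ITGAL, the LFA-1 alpha chain, rose from 26.2 and 25.5 FPKM to 32.3 and 34.1 FPKM (0.35, limma adjusted p = 0.00204), 1 of 4 higher among 16 integrins and homing receptors (4 after correction, 3 without treated replicate 2), while CXCR4 fell (-0.21, limma adjusted p = 0.0183). BCL6 and DUSP10 were under the filter, and SOCS1 was not called (0.26, limma adjusted p = 0.145).

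**Figure D5:**
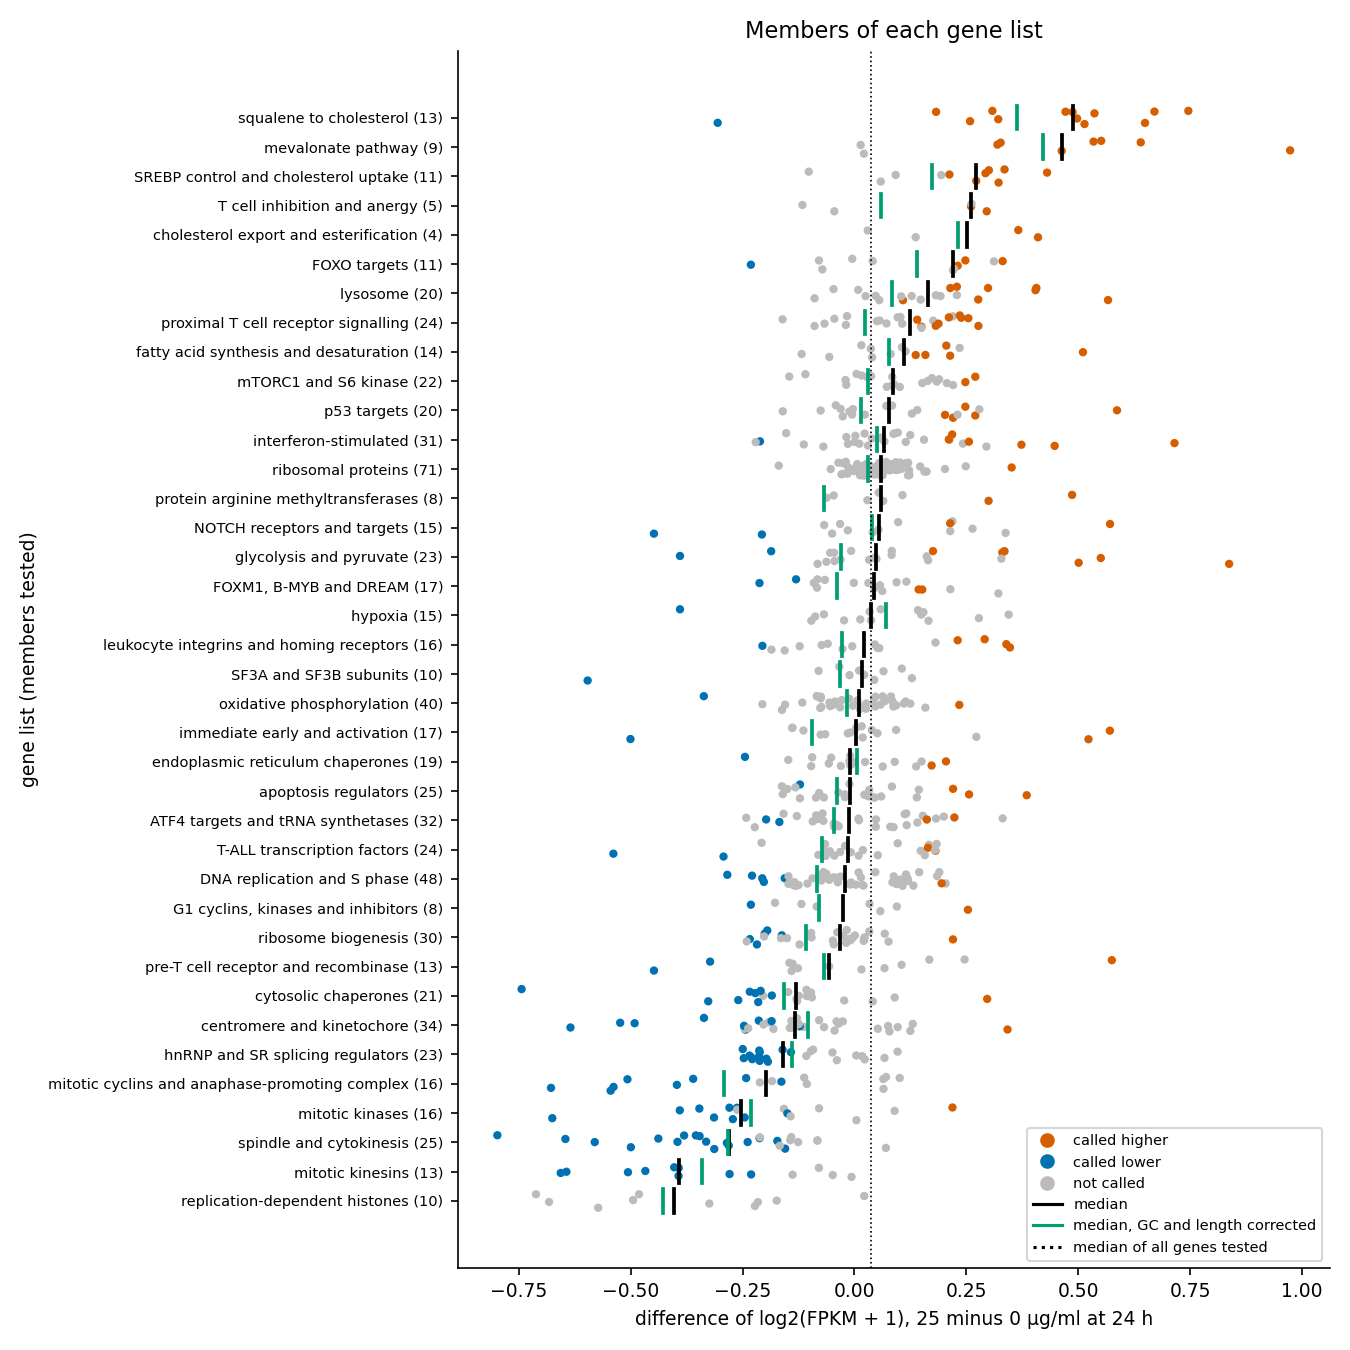
Difference of log2(FPKM + 1), 25 minus 0 µg/ml at 24 h (x axis), for the tested members of each gene list (y axis), with members called higher, called lower and not called in 3 colours. Black bars are list medians, green bars the medians after GC and length correction, and the dotted line the median of all tested genes. The sterol lists stand at the top and the kinesin, spindle, kinase and histone lists at the bottom, and for T cell receptor signalling the green bar lies near 0.

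The lower dose at 24 h was measured against the same untreated libraries, so each dose is given by its own values. HMGCS1 had 96.2 and 96.8 FPKM at 12.5 µg/ml, between the untreated and the 25 µg/ml libraries. MSMO1 had 39.1 and 41.4 FPKM, PLK1 86.1 and 84.5 FPKM, HMMR 43.8 and 44.9 FPKM and SF3B3 48.7 and 47.0 FPKM at 12.5 µg/ml. In each of these genes both libraries again lay between the other groups. They were named for a clear difference between 0 and 25 µg/ml, which favours a middle position, and no share over all genes was counted. TFEB had 2.80 and 3.02 FPKM at 12.5 µg/ml, level with 2.96 and 2.80 FPKM at 25 µg/ml. The median of the 22 cholesterol synthesis genes was 0.17 at 12.5 µg/ml and 0.48 at 25 µg/ml, and that of the 70 mitotic genes -0.12 and -0.25. Against untreated cells 14 genes were called at 12.5 µg/ml (1162 with an unadjusted p under 0.05), and 44 were called between the doses.

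The libraries of 6 h had untreated controls of their own, so the 2 effects of 25 µg/ml could be set against each other. They differed in 397 genes (3.31%), 283 higher (2.36%) and 114 lower (0.952%) at 24 h. Of these, 372 were among the 1988 called at 24 h, a test that uses the same 24 h values. Of the 22 cholesterol synthesis genes 11 differed, with a median effect of 0.04 at 6 h, and of the 70 mitotic genes 19 differed, with a median of -0.08 at 6 h. HMGCS1 was already higher at 6 h (0.32, limma adjusted p = 0.017), and its effect was larger by 0.65 at 24 h (limma adjusted p = 0.0027). For PRMT10 the effect was 0.54 at 6 h and 0.49 at 24 h (difference -0.05, limma adjusted p = 0.70), and for SF3B3 it was -0.44 and -0.60 (difference -0.15, limma adjusted p = 0.095). The count of 397 depended on single libraries: it was 845 without replicate 1 and 19 without replicate 2 of 25 µg/ml at 24 h, 230 and 37 without untreated replicates 1 and 2, and 3 with lane 4 alone. It was 398 with lane as a covariate, which could not change the differences because each dose at 6 h ran in both lanes. It was 0 with a replicate block within each time, where at 6 h the replicate number and the lane coincide. The fits with lane 4 alone and with this block left 3 and 5 residual degrees of freedom, against 8. At 12 h, with 1 untreated library, 0 genes differed from the 24 h effect by limma (1404 with an unadjusted p under 0.05, and 0 to 29 called under the alternatives), and the median of the cholesterol synthesis genes was 0.14 and that of the mitotic genes -0.13.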

How the data were processed

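RNA was measured as poly(A)-selected TruSeq libraries, per the labels' protocols. The authors deposited 1 table of FPKM values, with a column per library. TopHat2 2.1.0 is named in the submitters' processing notes. The quantifier and gene models are not named there, and the build is not given in the sources used here. An FPKM of 0 can be a failed estimate, and FPKM keeps no counts, so no count test was run. The table held 25593 lines for 25548 symbols, and for 45 symbols on several lines the one with the greatest mean entered.

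The 11977 genes whose FPKM averaged 1 or more over the 4 libraries were fitted on log2(FPKM + 1) with limma 3.58.1 in R, with 9 group means, by dose and time, over 17 libraries (8 residual degrees of freedom, 3.11 prior, trend on mean), two-sided, with Benjamini-Hochberg adjustment over all genes tested. Transcript GC content and length were taken from GENCODE v29 for 92.8% of genes; the correction subtracted loess curves from each library. Promoter windows came from RefSeq GRCh38.p14. In 20 simulations of 25 against 0 µg/ml at 24 h, 200 of 11977 genes were changed. There 27.8% of changes of 0.25 and 76.6% of changes of 0.5 were recovered, and 3.66% of calls were false. Their noise was drawn independently for each gene and library, without the GC-linked deviation of the real libraries. The share of false calls among the 1988 called genes therefore cannot be read from them.

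The members and the 38 gene lists were chosen with earlier results of these data known. The text names the 12 largest rises and the 12 largest falls among called genes whose groups did not overlap. It also names up to 4 members per list with the smallest p, and fixed candidates. Members given to complete a list, or singled out later, are said to be so. By rule, 68 called genes with symbols of small RNAs or provisional loci were counted and are not named. RN5S3 was outside that rule and is named. Alternatives numbered 26, of which 3 were added after the data were seen. A few list members enter the counts and are not reported here individually.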

Additional observations from a re-analysis of the deposited data

Results flagged for a closer look

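Among the genes with the largest changes at 24 h and the fixed candidates, 18 had an effect of 25 µg/ml at 24 h that differed from the effect at 6 h. The test was limma at an adjusted p under 0.05 over all tested genes, of which 397 (3.31%) differed. The 24 h values that picked the largest changes also enter this difference, so the choice favoured a larger effect at 24 h. The values that follow are the effect at 24 h minus the effect at 6 h, in log2(FPKM + 1). The effect at 24 h was higher for the sterol genes HMGCS1 (0.653), MSMO1 (0.471) and INSIG1 (0.354), for ALDOC (0.659), and for PLAC8L1 (1.35), C6orf223 (0.951), MFAP4 (0.851) and GGTLC2 (0.75). It was lower for the mitotic genes HMMR (-0.471), CCNB2 (-0.502), CCNB1 (-0.373) and PLK1 (-0.397), for the near-identical FAM72A (-0.502), FAM72B (-0.577) and FAM72D (-0.496), and for CHORDC1 (-0.418), H1F0 (-0.553) and RN5S3 (-3.49), the last listed at 0 in both treated libraries at 24 h. The 6 h libraries of replicate 2 ran in lane 5 and all 24 h libraries in lane 4. With lane as a covariate 398 genes of all those tested differed between the times, and all 18 genes kept their call (limma adjusted p 0.00252 to 0.036). That fit could not test the part of lane. Each dose at 6 h ran in both lanes, so the lane term changed the estimated spread but not the differences. Lane 4 alone held 1 library per dose at 6 h and left 3 residual degrees of freedom, against 8 in the main fit. A replicate block within each time left 5. Fewer degrees of freedom lower the power, so the part of lane was not tested there either. With lane 4 alone 3 genes differed, and with a replicate block within each time, where the number coincides with the lane at 6 h, 0 did. None of the 18 kept its call under either (limma adjusted p 0.155 to 0.319 and 0.0525 to 0.0943).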

How the results depend on the processing

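The number of genes called for 25 against 0 µg/ml at 24 h (1988) stayed within 1.5 times of that value under the other pseudocount, filters, normalizations, lane covariate and variance model. It fell to 144 with only the 4 libraries compared in the fit (64 higher, 80 lower), to 997 with only the 24 h libraries (614, 383) and to 957 with lane 4 only (587, 370). It was 136 without replicate 2 of both groups (75, 61) and 3091 without replicate 1 of 12.5 µg/ml at 6 h (1969, 1122). Leaving out each of the 4 libraries in turn gave 490 to 2042 calls (304 to 1385 higher, 186 to 657 lower), with 490 without untreated replicate 2, 611 without replicate 2 at 25 µg/ml and 1077 without untreated replicate 1. Median centring gave 789 higher, and the GC and length correction 1180 lower. That correction without replicate 2 at 25 µg/ml gave 1094 (468 higher) and without untreated replicate 2 gave 991 (420 higher).

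The labels mark the second library of each group as a duplicate, but same-numbered libraries did not deviate together (correlations between doses of -0.184, -0.073 and 0.028 at 24 h, all in lane 4, and of -0.077, -0.057 and 0.013 at 6 h, where the number coincides with the lane). At 24 h they share only a number. With the replicate block 1844 genes were called, with a block within each time 1325 (861 higher), and with the block and the GC and length correction 1168 were lower. With the numbers crossed at 25 µg/ml the block called 2136.

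The difference from the effect at 6 h (397 genes) was 235 without a filter, 3 with lane 4 only, 0 with the replicate block within each time, 690 and 11 without replicates 1 and 2 of both groups, and 1174 without replicate 1 of 12.5 µg/ml at 6 h. It was 19 to 845 on leaving out each library in turn, and 160 and 134 in the corrected fits without replicate 2 at 25 µg/ml and without untreated replicate 2.

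Of the 136 called genes that the naming rule took, 35 kept their call under all alternatives run, among them 13 of the 24 with the largest changes. E2F1 turned to -0.0067 after correction, with and without the block, and CD6 to -0.0022 after correction without untreated replicate 2; neither was called there. The cause was not tested. Depth is unknown in absolute terms, so no counting error can be given. With 2 libraries per group, changes near 0.25 were mostly not recovered in simulations with 200 changed genes and independent noise.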
